A study of Mus musculus with 72 samples.

Results

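Mouse early secondary follicles cultured for 24 h with the hypoglycosylated hormone FSH21 at 1 ng/ml were compared with follicles given the fully glycosylated FSH24 at the same dose. The comparison took every sample labelled with either form at 1 ng/ml, which was 24 of the 72 samples of the series, or 6 of its 18 libraries, since each library had been run on 4 lanes. The libraries carry a number in their titles, and those numbered 1, 5 and 6 held both forms and an untreated control, so FSH21 was compared with FSH24 within each number. The study asked how the glycoforms of FSH change the follicle transcriptome, and also gave each form at 10 ng/ml, with numbers 2, 3 and 4 and their own untreated controls. All groups shared the same culture at 37 C under 5% CO2 in α-MEM with bovine serum albumin, fetuin and insulin-transferrin-selenium. The strain, the age of the mice, and how many follicles or animals stood behind a library are not given in the sources used here. Whether same-group libraries came from different mice or dishes is not stated, so the tests speak to variation among the libraries only, and some of it may be technical.

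Follicle-stimulating hormone (FSH) is a pituitary glycoprotein that binds the FSH receptor on granulosa cells and acts largely through Gs, cyclic AMP and protein kinase A. The receptor also engages phosphoinositide 3-kinase signalling, and the number of glycans on the hormone's β subunit is known to affect how it binds. In a secondary follicle, layers of granulosa cells surround a growing oocyte and exchange signals with it through secreted ligands, gap junctions and thin cell extensions called transzonal projections.

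Libraries held 20501310 to 22284646 counts with FSH21, 19042245 to 22509689 with FSH24 and 20751536 to 22076399 in the controls of the same numbers. Levels are given in CPM, counts scaled by library depth after TMM normalization, and were not divided by gene length, so they are compared between libraries and not between genes. They are listed in the order of numbers 1, 5 and 6. The oocyte markers Gdf9 and Zp3 and the granulosa markers Amh, Fshr and Inha were present in all 6 libraries, and the red cell marker Hbb-bs was at 0. One library stood apart. FSH24 number 6 held 19.5 CPM of Upk3b, a surface epithelium marker, against 3.63 in FSH21 number 6 and 0.259 to 0.743 in the other 4 libraries, and its 8 surface epithelium genes summed to 84.6 CPM against 46.5 and 51.8 in the other FSH24 libraries and 58.8 to 64.6 with FSH21. The immune marker Ptprc stayed at or under 0.186 CPM. The share of counts on the 18S ribosomal RNA row ran from 0.666% to 1.46% with FSH21 and from 0.684% to 2.51% with FSH24.

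With FSH21, 110 genes were higher and 67 lower than with FSH24, among them Kitl, Itga6 and Myo7a on the higher side. Ribosomal protein genes were the most numerous group on the lower side, where Gm9385 and Cd34 differed most among genes with a mean of at least 1 CPM. The differences were small: 4 of the higher and 1 of the lower genes differed at least 2-fold, and the median difference was 0.38 and -0.40 on the log2 scale. These calls are adjusted p under 0.05 in edgeR's quasi-likelihood test with the number as a block, over 18727 genes tested. They are 0.587% and 0.358% of the genes tested, and 2629 genes (14%) had an unadjusted p under 0.05. All 110 and all 67 had the same sign in each of the 3 same-number pairs. In 90 of the 110 all FSH21 libraries lay above all FSH24 libraries, and in 56 of the 67 all lay below. Over all genes tested such separation was seen in 7.77% (above) and 7.09% (below). The genes were called on these same pairs, so the shared signs and the separation follow largely from the choice and lend the calls no support. The calls rest on the block: without it 2 genes were called, Kitl (adjusted p = 0.0211) and Cbfa2t3 (adjusted p = 0.0215), while 1770 had an unadjusted p under 0.05. Leaving out 1 of the 6 libraries left 10 to 149 genes called, with 10 without FSH21 number 1, 28 without FSH24 number 5, 35 without FSH21 number 5 and 129 without FSH24 number 6. All 177 kept their sign in each of those 6 fits, which share all but 1 library with the main fit.

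**Figure D1:**
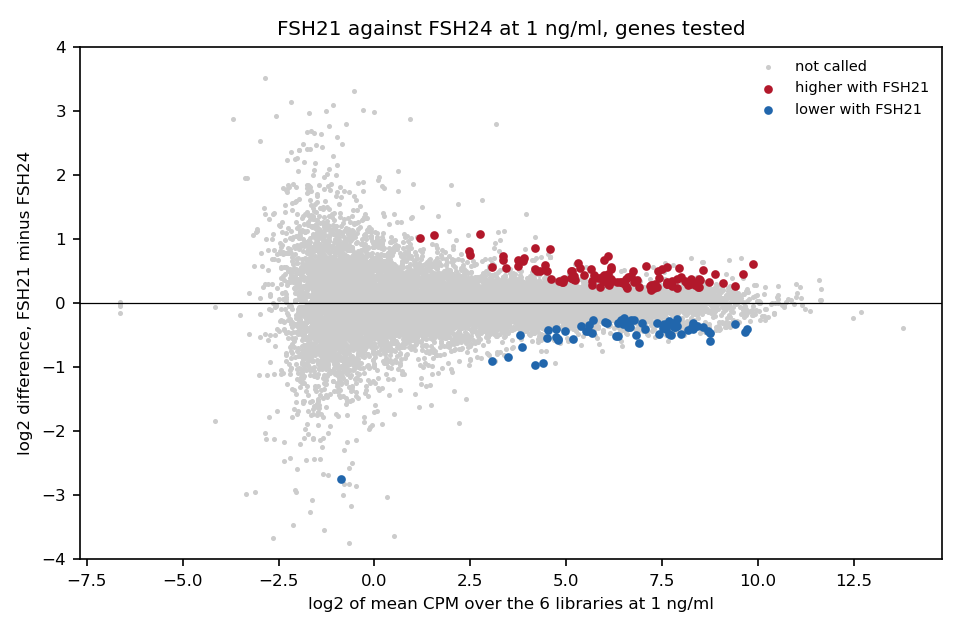
Log2 difference between FSH21 and FSH24 at 1 ng/ml (vertical axis) against the log2 of the mean level in CPM over the 6 libraries (horizontal axis), 1 point per gene tested. Red points are the 110 genes called higher with FSH21 and blue points the 67 called lower, and 39 genes with a difference beyond 4 in either direction, 1 of them called, lie outside the plot.

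Calls that held in all 6 of these fits were Myo7a, Gstm7, Gstm6, Scube1, Itga6, Kitl and Cntn4 among the higher genes and Gm9385 among the lower ones. Cntn4, an adhesion molecule of the contactin family, and Cbfa2t3, a transcriptional corepressor, fall outside the rule for named genes and were chosen after their values were seen. Cntn4 measured 62.1, 66.5 and 48.7 CPM with FSH21 and 38.3, 51.4 and 33.7 CPM with FSH24, a difference of 0.53 ± 0.072 (SE) on the log2 scale (adjusted p = 0.00273). Cbfa2t3 measured 91.3, 73.1 and 71.1 CPM with FSH21 and 52.4, 45.0 and 50.4 CPM with FSH24, a difference of 0.67 ± 0.092 (SE) on the log2 scale (adjusted p = 0.00365).

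Kitl encodes kit ligand, the granulosa cell growth factor that acts on the KIT receptor of the oocyte. It lies on chromosome 10, 100015630 to 100100416, plus strand (GRCm38, GENCODE M21). With FSH21 its level was 233, 249.5 and 228 CPM, and with FSH24 it was 169, 155.8 and 157 CPM, beside 157, 155 and 160.2 CPM in the untreated controls. The FSH21 libraries were the highest 3 of these 9, and the FSH24 libraries were above their own control in numbers 1 and 5 and below it in number 6. The difference between forms was 0.56 ± 0.058 (SE) on the log2 scale (adjusted p = 0.000422), or 1.47-fold, with a 95% interval of 0.44 to 0.68. In RNA from whole follicles a lower level can come from fewer cells of a type or from less RNA per cell, and these cannot be told apart. Kit, the receptor gene, measured 153, 168 and 156.1 CPM with FSH21 and 148, 139.6 and 160.3 CPM with FSH24, and its difference of 0.090 did not pass (adjusted p = 0.525).

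The promoter window of Kitl and that of Myo7a, described next, are printed because these genes kept their calls whichever library was left out. They run from 250 bases before the RefSeq start to 20 after it (RefSeq, GRCm38.p6), 5′ to 3′ on the gene's strand, with matches to the GC box GGGCGG on either strand in capitals.
Kitl (chr10:100015571-100015840, plus strand): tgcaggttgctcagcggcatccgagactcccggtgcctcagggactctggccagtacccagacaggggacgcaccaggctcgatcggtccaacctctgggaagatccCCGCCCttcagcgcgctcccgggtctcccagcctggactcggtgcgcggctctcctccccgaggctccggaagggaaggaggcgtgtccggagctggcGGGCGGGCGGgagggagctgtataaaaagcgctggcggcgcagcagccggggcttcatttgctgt
Myo7a (chr7:98119474-98119743, minus strand): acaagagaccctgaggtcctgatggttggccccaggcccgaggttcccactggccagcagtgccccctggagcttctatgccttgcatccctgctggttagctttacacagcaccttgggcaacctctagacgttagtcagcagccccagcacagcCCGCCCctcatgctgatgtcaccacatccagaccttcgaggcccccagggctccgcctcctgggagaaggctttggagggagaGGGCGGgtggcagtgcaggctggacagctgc
Kitl held 3 matches, the first base of each at -143, -45 and -41 from the start with 2 of them overlapping, and Myo7a held 2, at -94 and -11. By the GENCODE positions of these genes, both RefSeq starts lie inside the gene. So do all 3 matches of Kitl and the match of Myo7a at -11. Neither printed stretch held a match to the full cyclic AMP response element TGACGTCA, its half-site TGACG or the NR5A site CAAGGTCA. On either strand of the 300-base windows that could be matched (12603 of the genes tested, 135 of those called), the GC box was in 63.6% of the higher genes, 66.0% of the lower genes and 60.5% of all. The full element was in 2 of 88 higher and 3 of 47 lower genes (2.27% and 6.38%) beside 2.97% of all. Its half-site, which the full element contains, was in 18.2% and 38.3% beside 29.5% of all, and the NR5A site in 1.14% and 0% beside 1.17%. These are matches of letters only.

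Itga6, the integrin α6 chain that binds basement membrane laminins, lies on chromosome 2, 71745616 to 71858416, plus strand. It measured 1338, 1098 and 982 CPM with FSH21 and 799.6, 719.9 and 696 CPM with FSH24, with 734, 749 and 608 CPM in the controls. The lowest FSH21 library was above the highest FSH24 library, and the difference was 0.62 ± 0.067 (SE) on the log2 scale (adjusted p = 0.000422). Lama3, a laminin α chain, measured 16.8, 11.1 and 9.66 CPM against 9.32, 8.17 and 5.96 CPM and differed by 0.67 ± 0.13 (SE) on the log2 scale (adjusted p = 0.0181). Tns3, the focal adhesion protein tensin 3, differed by 0.33 (adjusted p = 0.0236) with no overlap between the groups. Of the 20 focal adhesion genes tested, Itga6 and Tns3 passed and none was called lower. The list as a whole had no lean that held: its median was 0.047, beside 0.0035 over all genes tested, and was -0.0084 without FSH21 number 5 and 0.022 without FSH24 number 6.

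Myo7a, an unconventional myosin of actin-filled cell projections, had the largest fold difference among the called genes with a mean of at least 1 CPM and signal in both groups. It lies on chromosome 7, 98051060 to 98119524, minus strand. Its levels were 11.1, 9.83 and 6.52 CPM with FSH21 and 5.54, 4.04 and 3.43 CPM with FSH24, a difference of 1.07 ± 0.13 (SE) on the log2 scale (adjusted p = 0.00127). The groups did not overlap, although the FSH21 libraries ranged more widely than the FSH24 libraries. Myo10, the myosin that carries cargo to filopodial tips, measured 746, 804 and 676 CPM with FSH21 against 616, 665 and 565 CPM with FSH24, a difference of 0.27 ± 0.057 (SE) on the log2 scale (adjusted p = 0.0356). Its controls, at 638, 771 and 696 CPM, were above FSH24 in every number, and neither form differed from them by the test (0.080 for FSH21 and -0.19 for FSH24). Among 15 genes of transzonal projections and filopodia, Myo7a and Myo10 were called higher and none lower, and 12 were on the higher side, with a median of 0.066 (0.059 to 0.12 with 1 library left out, the highest without FSH24 number 6).

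Dsc2, the desmosomal cadherin desmocollin 2, measured 20.8, 18.7 and 15.9 CPM with FSH21 and 13.0, 10.1 and 10.7 CPM with FSH24 and differed by 0.71 ± 0.10 (SE) on the log2 scale (adjusted p = 0.00365). It was the 1 called gene among 19 cell-cell adhesion genes, of which 15 were on the higher side. Desmoplakin (Dsp), which anchors desmosomes to keratin filaments, differed by 0.45 without passing (adjusted p = 0.164). The cadherin genes Cdh1 and Cdh2 differed by -0.013 (95% interval -0.19 to 0.16) and 0.14 (-0.0026 to 0.29). None of the 7 gap junction genes tested was called. Gja1, which encodes the main granulosa cell connexin, measured 2453, 2271 and 2125 CPM with FSH21 and 2337, 2225 and 1900.5 CPM with FSH24, with an interval of -0.056 to 0.23. Gja4, which encodes the oocyte connexin, had an interval of -0.059 to 0.20.

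**Figure D2:**
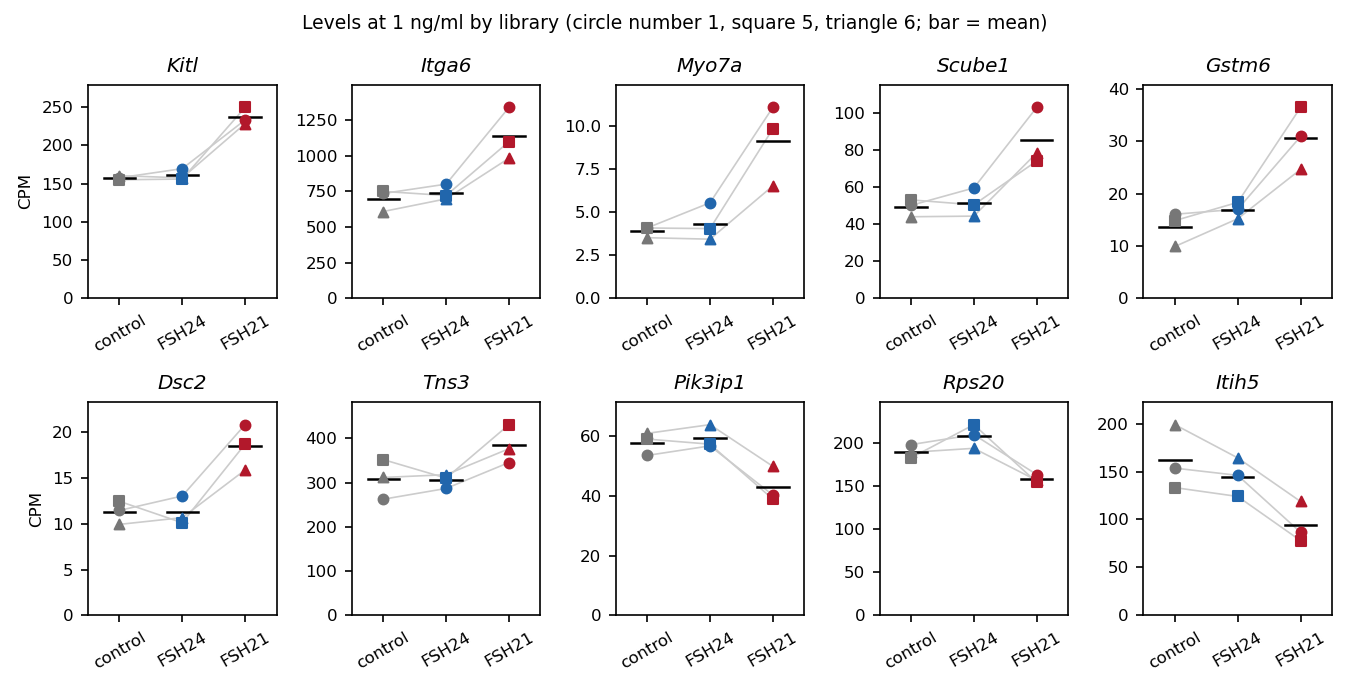
Level in CPM of 10 genes in the control, FSH24 and FSH21 libraries at 1 ng/ml, 1 panel per gene with axes from 0; symbols mark the library numbers 1, 5 and 6, grey lines join libraries of the same number, and black bars are means. In Kitl, Itga6, Myo7a, Scube1, Gstm6, Dsc2 and Tns3 the 3 FSH21 libraries lie above the 3 FSH24 libraries, and in Pik3ip1, Rps20 and Itih5 they lie below them.

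A secreted protein gene and a set of glutathione transferase genes were also higher with FSH21. Scube1, which encodes a secreted and surface-bound protein with EGF-like repeats, measured 103, 74.2 and 78.5 CPM with FSH21 and 59.6, 50.5 and 44.4 CPM with FSH24, a difference of 0.73 ± 0.090 (SE) on the log2 scale (adjusted p = 0.00261). In all, 3 genes of the mu class of glutathione S-transferases, which join glutathione to reactive compounds, were called together on chromosome 3. Gstm6 measured 30.9, 36.5 and 24.7 CPM against 17.03, 18.3 and 15.2 CPM and differed by 0.85 ± 0.10 (SE) on the log2 scale (adjusted p = 0.000929). Gstm7 measured 24.4, 26.3 and 19.3 CPM against 14.2, 12.6 and 11.7 CPM and differed by 0.86 ± 0.11 (SE) on the log2 scale (adjusted p = 0.00127). Gstm2 measured 599.9, 545 and 492 CPM against 431, 435 and 340.0 CPM and differed by 0.45 ± 0.066 (SE) on the log2 scale (adjusted p = 0.00365). In each of them the groups did not overlap. They are close paralogs, and reads shared between copies make their separate values uncertain. Of 13 genes of the NRF2 and glutathione list they were the 3 called, and 11 were on the higher side. Other members of the list with textbook NRF2 control were near 0, such as Hmox1 (0.0042) and Gclc (0.0037), and Srxn1 was on the lower side (-0.29, adjusted p = 0.223).

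In the cholesterol synthesis list, 20 of 23 genes were on the higher side with FSH21, with a median of 0.14 (0.087 to 0.16 with 1 library left out, the lowest without FSH21 number 6). Hmgcs1, an early enzyme of the pathway, measured 282, 327 and 296 CPM with FSH21 and 246, 272 and 283 CPM with FSH24 and did not pass at 0.17 (adjusted p = 0.15). The groups overlapped, though FSH21 was the higher in every number.

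Ltbp1, which tethers latent TGF-beta to the matrix, measured 275, 204 and 169 CPM with FSH21 and 175, 140.2 and 128 CPM with FSH24 and differed by 0.53 ± 0.074 (SE) on the log2 scale (adjusted p = 0.00345). The groups overlapped, since FSH21 number 6 was below FSH24 number 1. It was the 1 called of 12 TGF-beta and BMP targets, 8 of which were on the lower side (median -0.17). Without FSH24 number 5 the list was split 6 and 6, with a median of -0.0079. Vcan, the matrix proteoglycan versican, measured 294, 322 and 314 CPM against 229, 241 and 274 CPM and differed by 0.33 ± 0.062 (SE) on the log2 scale (adjusted p = 0.0171). The cell cycle genes Ccnb2, encoding a mitotic cyclin, and Top2a, encoding the topoisomerase that untangles replicated DNA, differed by 0.38 (adjusted p = 0.0118) and 0.28 (adjusted p = 0.0455). They were the 2 called of 23 cell cycle genes, 12 of which were on the higher side. The nuclear noncoding RNA Neat1 differed by 0.34 (adjusted p = 0.0315) and was the 1 called of 6 nuclear-retained RNAs, all 6 of which were on the higher side with a median of 0.34 (0.23 to 0.48 with 1 library left out). Malat1 was at 0.64 without passing (adjusted p = 0.136). Whether nuclear RNA content has a part in the other differences was not tested.

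The remaining genes that the rule names among the higher ones were low in level. Psmb9, an immunoproteasome subunit, measured 5.17, 3.03 and 3.72 CPM with FSH21 and 2.28, 1.62 and 1.78 CPM with FSH24 and differed by 1.06 (adjusted p = 0.0455). Thsd1, a thrombospondin-domain membrane protein, differed by 1.02 (adjusted p = 0.0302) with overlapping groups. Ifitm1, an interferon-inducible membrane protein, Epha1, an ephrin receptor, Myh14, a nonmuscle myosin heavy chain, and H1f2, a linker histone, differed by 0.81, 0.75, 0.73 and 0.67 (adjusted p = 0.0491, 0.024, 0.0171 and 0.032), each with no overlap. The call of Ifitm1 and that of Psmb9 were lost whichever library was left out. The same held for other named genes, among them Top2a, Mapk10, Pam16, Rpl10a, Rpl37, Rplp0 and Rps28. H1f2 belongs to a family of near-identical histone genes, and Ifitm1 to another family of close copies, so their counts are uncertain. Outside the rule, and chosen after its values were seen, the processed pseudogene Gm4540 measured 0.998, 1.09 and 2.94 CPM with FSH21 and had no count in any FSH24 library. Against a floor of 3 counts over the FSH24 group it was at least 35.5-fold higher. The fold depends on that floor. Reads of a processed pseudogene can be shared with its parent gene, so both the fold and the lack of counts are uncertain.

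The largest group of lower genes encoded ribosomal proteins, the components of both ribosomal subunits whose mRNAs are typically made and translated together. Of 77 tested, 21 were called lower with FSH21 and 0 higher, 76 were on the lower side, and 73 were lower in all 3 pairs. In 67 of the 77 (87.0%) all FSH21 libraries lay below all FSH24 libraries, against 7.09% of all genes tested. Their median difference was -0.37, beside 0.0035 over all genes tested. Among the 21 called were Rpl3, Rpl10a, Rpl15, Rpl18, Rpl30, Rpl34, Rpl35, Rpl36, Rpl37, Rpl38, Rplp0, Rplp1, Rplp2, Rps3a1, Rps7, Rps13, Rps20, Rps26, Rps27a and Rps28. Differences of the 21 ran from -0.59 to -0.25. The genes have processed pseudogenes that can share their reads, so single values are uncertain. RLE scaling left 20 called and the same 76 to 1 split by sign.

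The start regions of 4 called genes are printed, from 40 bases before the RefSeq start to 20 after it (RefSeq, GRCm38.p6), because ribosomal protein mRNAs are known to begin with a pyrimidine run that takes part in their translational control. Capitals mark the longest run of at least 7 C or T that reaches within 10 bases of the start.
Rpl35 (chr2:39005112-39005171, minus strand): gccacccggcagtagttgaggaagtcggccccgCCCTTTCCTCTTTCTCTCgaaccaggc
Rps26 (chr10:128626487-128626546, minus strand): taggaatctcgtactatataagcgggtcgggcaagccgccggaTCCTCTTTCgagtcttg
Rpl34 (chr3:130730379-130730438, minus strand): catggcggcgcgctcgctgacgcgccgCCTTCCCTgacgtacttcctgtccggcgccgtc
Rplp2 (chr7:141447611-141447670, plus strand): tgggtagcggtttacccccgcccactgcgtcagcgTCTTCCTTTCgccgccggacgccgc
Such a run was found in 28 of the 57 ribosomal protein windows matched (49.1%) and in 8 of the 14 called ones. It was in 11 of 33 other lower genes (33.3%), 19 of 88 higher genes (21.6%) and 2516 of the 12603 windows in all. The RefSeq start need not be the start used in these follicles, and the run is a description of the sequence.

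Rpl35 measured 167, 157 and 179 CPM with FSH21 and 226, 234 and 208 CPM with FSH24, a difference of -0.40 ± 0.072 (SE) on the log2 scale (adjusted p = 0.0126). Rps26 measured 262, 306 and 239 CPM against 323, 413 and 317 CPM and differed by -0.38 ± 0.069 (SE) on the log2 scale (adjusted p = 0.0128). Rpl34 measured 76.3, 57.2 and 61.8 CPM against 98.7, 99.6 and 79.1 CPM and differed by -0.51 ± 0.089 (SE) on the log2 scale (adjusted p = 0.0137). In all of these the FSH21 libraries were the lowest, and FSH24 number 5 held the highest level. Rplp2, of the ribosomal stalk, measured 319.9, 276 and 299.6 CPM against 395, 404 and 346 CPM and differed by -0.35 ± 0.074 (SE) on the log2 scale (adjusted p = 0.0315), again with FSH24 number 5 highest. Rplp0, also of the stalk, measured 689, 624 and 737 CPM against 909, 951 and 928 CPM and differed by -0.45 ± 0.096 (SE) on the log2 scale (adjusted p = 0.0455). FSH24 number 5 also carried the highest share of 18S ribosomal RNA, 2.51%, and the part of that library in the result was not tested beyond leaving it out. Without it 0 of the 77 were called and 74 remained on the lower side, with a median of -0.27. The calls also went to 0 without FSH21 number 1 (77 on the lower side) or FSH21 number 5 (74), with medians of -0.37 and -0.30. Without FSH24 number 6, the library with surface epithelium markers, 17 were called and the median was -0.41. Without the block 0 were called and the median was -0.37.

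Other lower genes were of mixed kinds. Itih5, a matrix-associated hyaluronan-binding protein, measured 86.6, 78.0 and 119 CPM with FSH21, 146, 124 and 164 CPM with FSH24 and 154, 133 and 199 CPM in the controls, and differed between forms by -0.63 ± 0.091 (SE) on the log2 scale (adjusted p = 0.00637). Pik3ip1, an inhibitor of phosphoinositide 3-kinase and a known FOXO target, measured 40.2, 38.8 and 49.8 CPM against 56.6, 57.2 and 63.7 CPM and differed by -0.47 ± 0.082 (SE) on the log2 scale (adjusted p = 0.0118). It was the 1 called of 14 FOXO targets, 8 of which were on the lower side. Igfbp7, a secreted IGF-binding protein relative, measured 163, 183 and 168 CPM against 228, 267 and 221 CPM and differed by -0.48 ± 0.086 (SE) on the log2 scale (adjusted p = 0.0169), and it was the 1 called of 14 IGF pathway genes. In all of these the groups did not overlap.

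Mapk10, a JNK family kinase, Mlf1, a nucleocytoplasmic shuttling protein, Mxra8, a matrix-remodelling membrane protein, and Vstm4, a membrane protein with an immunoglobulin domain, differed by -0.53, -0.57, -0.57 and -0.55. Pam16, part of the mitochondrial protein import motor, and Ptn, the growth factor pleiotrophin, differed by -0.69 and -0.84. The noncoding RNA gene 2410006H16Rik differed by -0.57. The ribosomal protein pseudogene Rps19-ps6 differed by -0.90, and its reads can be shared with its parent gene. The processed pseudogene Gm9385 differed by -0.97, and the same limit on shared reads holds for it. Adjusted p ran from 0.00365 for Gm9385 to 0.0356 for Ptn among these.

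Cd34, a sialomucin of vascular and mesenchymal cells, measured 15.5, 9.65 and 17.6 CPM with FSH21 and 25.98, 16.6 and 41.1 CPM with FSH24 and differed by -0.94 ± 0.15 (SE) on the log2 scale (adjusted p = 0.0105). Its highest value was in FSH24 number 6, the library with surface epithelium markers. Without the 3 libraries numbered 6 the difference was -0.76 (adjusted p = 0.027). The 8 endothelial genes tested were all on the lower side, with none called and a median of -0.40, which became -0.036 without FSH24 number 6. Their summed level was 85.4 to 95.03 CPM with FSH21 and 85.5 to 101.4 CPM with FSH24, and Pecam1, a defining endothelial gene, was at 11.4 to 15.2 CPM in these libraries. The part of those cells in the Cd34 result was not tested.

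Several genes of hormone response and steroid synthesis did not pass. Inhbb, the activin and inhibin βB subunit, measured 695, 265 and 209.6 CPM with FSH21 and 292, 202 and 160.0 CPM with FSH24. It was higher with FSH21 in every number but spread more than 3-fold within the FSH21 group, and the difference of 0.70 did not pass (adjusted p = 0.516). Igfbp5, an IGF-binding protein, measured 1486, 672 and 673 CPM against 659.7, 339 and 673 CPM, equal between forms in number 6, and differed by 0.70 (adjusted p = 0.261). Cyp19a1, aromatase, measured 17.5, 7.61 and 9.75 CPM against 11.1, 9.28 and 5.52 CPM and had a 95% interval of -0.39 to 1.19. Sema3g, a secreted semaphorin, measured 82.6, 56.9 and 65.1 CPM against 102, 131 and 90.3 CPM, with all FSH21 libraries below FSH24, and did not pass at -0.67 (adjusted p = 0.144). Cyp17a1, the theca enzyme of androgen synthesis, was at most 5.67 CPM and differed by 0.64 (adjusted p = 0.329). Some of these passed in other fits. Without FSH24 number 6 Igfbp5 passed at 1.07 (edgeR adjusted p = 0.0491), and with DESeq2 Sema3g passed (adjusted p = 0.0214). Without a filter on low counts, edgeR gave adjusted p = 7.48e-24 for Inhbb, 2.97e-29 for Igfbp5, 4.07e-19 for Sema3g and 0.0146 for Amh. The differences were close to those above. That setting called 990 genes between the forms at 1 ng/ml. It also called 413 for FSH24 against controls and 253 between forms at 10 ng/ml, where the main fit called 0. Its p-values are therefore not read as support for these genes.

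The FSH receptor gene Fshr itself measured 24.4, 34.7 and 21.6 CPM with FSH21 and 24.5, 32.3 and 17.3 CPM with FSH24, with a 95% interval of -0.073 to 0.34. None of 26 genes of FSH receptor signalling was called in either direction, 13 were on each side, and the median was 0.0034 (-0.026 to 0.0067 with 1 library left out). None of 19 cyclic AMP early-response genes was called after this 24 h culture (median -0.013, or -0.066 to 0.0058 with 1 library left out). Pde4b, a phosphodiesterase that breaks down cyclic AMP, differed by -0.21 without passing (adjusted p = 0.781), at 1.86, 1.59 and 1.23 CPM with FSH21 and 2.28, 1.72 and 1.42 CPM with FSH24. Of 19 FSH-induced granulosa genes, Vcan was the 1 called (median 0.074, with 0.016 without FSH21 number 6, 0.028 without FSH24 number 6, 0.13 without FSH21 number 5 and 0.16 without FSH24 number 5). Intervals of -0.19 to 0.28 for Inha, -0.15 to 0.30 for Inhba, -0.19 to 0.16 for Ccnd2 and -0.051 to 0.49 for Amh bound what these data allow for the inhibin subunits, cyclin D2 and anti-Müllerian hormone. Fst, follistatin, had -0.64 to 0.32, Star, the cholesterol transporter of steroidogenesis, -0.39 to 0.47, and Lhcgr, the luteinizing hormone receptor gene, -1.12 to 0.56.

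None of 22 oocyte genes was called. Their median was -0.097, with 15 on the lower side, 10 lower in all 3 pairs and 1 higher in all 3. The 13 granulosa identity genes lay the other way, with 10 on the higher side, 6 higher in all 3 pairs, 0 lower in all 3 and a median of 0.11. Over all genes tested 15.6% were lower and 17.9% higher in all 3 pairs. With 1 library left out the medians ran from -0.095 to -0.040 (oocyte, nearest 0 without FSH21 number 5) and from 0.045 to 0.13 (granulosa, lowest without FSH21 number 1), and the difference between the lists was not tested. The oocyte growth factors Gdf9 and Bmp15 had intervals of -0.081 to 0.15 and -0.067 to 0.23. Kitl was the 1 called gene of 20 oocyte-granulosa ligands and receptors and of 13 granulosa identity genes. No gene was called in the lists for glycolysis (17 of 19 on the lower side, median -0.17), the respiratory chain (21 of 22, median -0.12) or hypoxia (13 of 14, median -0.31). The lean of glycolysis and hypoxia rested on the libraries numbered 6: without FSH24 number 6 the medians were -0.040 and -0.013, without FSH21 number 6 -0.055 and -0.041, and without all 3 libraries numbered 6 0.0063 and 0.065, with 11 of 19 and 9 of 14 on the higher side. Without FSH21 number 1 they were -0.48 and -0.67, and without FSH24 number 1 -0.37 and -0.54. The respiratory chain kept 18 or more of 22 on the lower side in each of the 6 fits, with medians from -0.17 to -0.058, the one nearest 0 without FSH24 number 5. In the hypoxia list no gene was lower in all 3 pairs, and in glycolysis 1 was. Nor was any called among 13 theca and steroidogenic, 14 stroma and smooth muscle (10 on the lower side), 11 YAP target, 10 heat shock, 6 surface epithelium or 3 immune genes tested. None was called among 18 semaphorin signalling, 16 apoptosis and p53, 15 unfolded protein and amino acid response or 15 mitochondrial genome genes.

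**Figure D3:**
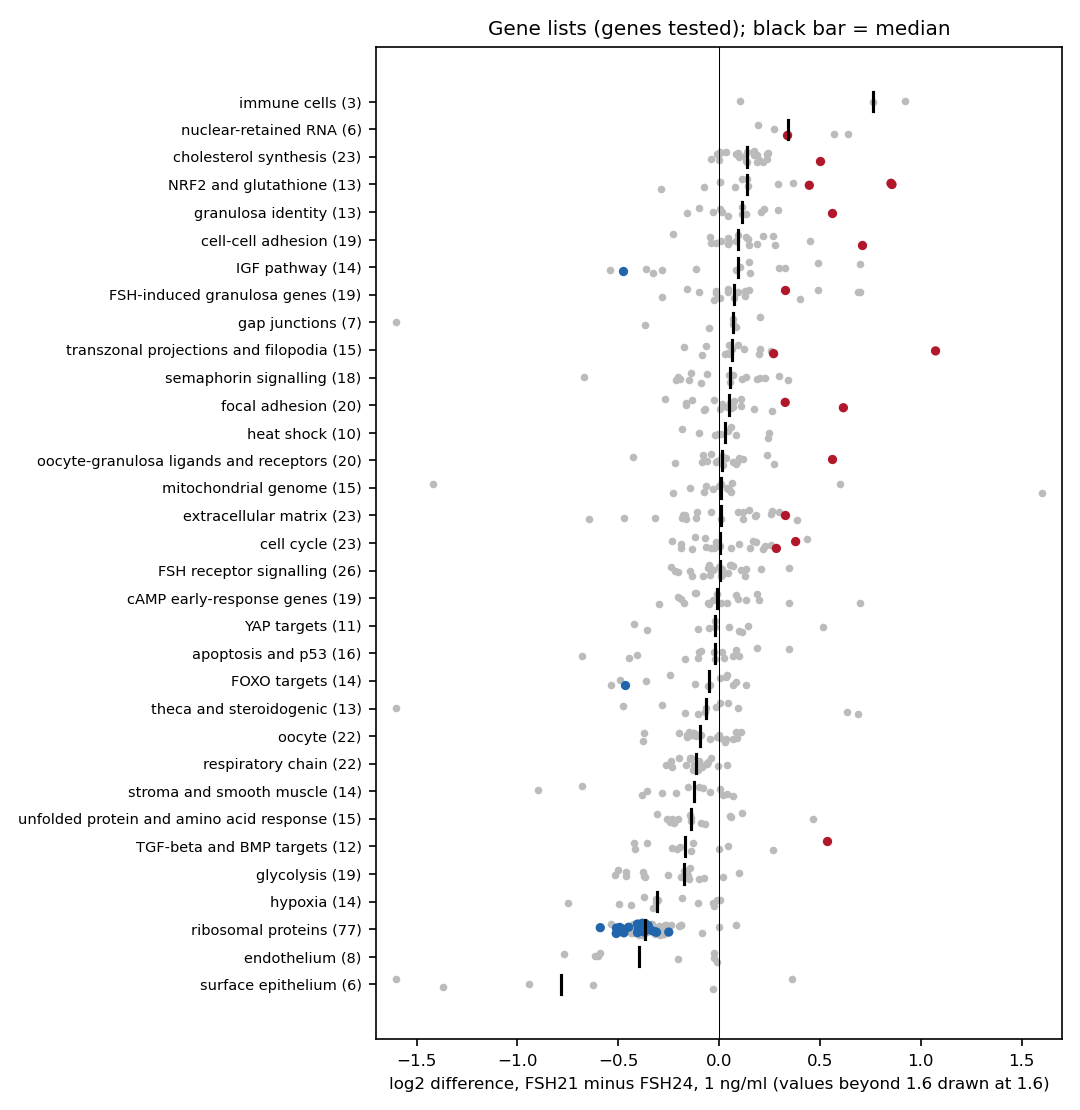
Log2 difference between FSH21 and FSH24 at 1 ng/ml for every tested gene of each list (number of genes in brackets), lists ordered by their median, which is the black bar. Red and blue points are genes called higher and lower; the 77 ribosomal protein genes sit to the left of 0 with 1 exception and hold 21 of the blue points.

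Set beside the untreated controls of the same numbers, the 110 higher genes had a median change of 0.35 with FSH21 and -0.068 with FSH24, and the 67 lower genes had -0.28 and 0.13. At 1 ng/ml FSH21 raised 148 genes and lowered 78 (0.79% and 0.417% of those tested). FSH24 at this dose gave 0 calls (0%) by edgeR, with 1802 genes at an unadjusted p under 0.05. DESeq2 also gave 0 for FSH24, but it gave an adjusted p for only 1300 genes there, so its 0 covers fewer genes. The comparisons with the controls share those controls and the treated libraries, so their values are given side by side. For Kitl they were 0.59 with FSH21 (adjusted p = 7.01e-05) and 0.030 with FSH24 (0.9). For Itga6 they were 0.70 (6.16e-05) and 0.087 (0.697). For Myo7a they were 1.21 (0.00018) and 0.14 (0.788). In all of these FSH21 passed and FSH24 did not. The ribosomal protein list had a median of -0.22 with FSH21 and 0.13 with FSH24, so the medians lay on opposite sides of the controls. Cd34 was at -0.34 with FSH21 and 0.60 with FSH24 and passed in neither (adjusted p = 0.446 and 0.365). Gm9385 likewise was at -0.44 and 0.53 (adjusted p = 0.169 and 0.364).

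At 10 ng/ml, in libraries numbered 2, 3 and 4, the main fit did not tell the forms apart, which does not show them to be equal. No gene was called between FSH21 and FSH24 by edgeR, 716 (3.82%) had an unadjusted p under 0.05, and DESeq2 called 20. The 110 genes called higher at 1 ng/ml had a median form difference of 0.0084 at 10 ng/ml, with 58 on the higher side, and the 67 lower genes had a median of 0.013. Kitl differed between forms by 0.11, Itga6 by 0.043 and Myo7a by 0.38 at that dose. The test of whether the form difference itself changed with dose called 0 genes by edgeR (smallest adjusted p = 0.127, 1917 at an unadjusted p under 0.05) and 161 by DESeq2. The doses were given in libraries of different numbers, so dose and library set cannot be told apart.

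Genes that differed between forms at the low dose were mostly genes that both forms moved at the high dose. Against their own controls, FSH21 and FSH24 at 10 ng/ml raised 1579 and 1502 genes (8.43% and 8.02%) and lowered 1240 and 1045 (6.62% and 5.58%). Both forms raised 1214 (6.48%) and lowered 850 (4.54%). These 2 comparisons share their controls, so the sets serve only to choose genes. Of the 110 genes higher with FSH21 at 1 ng/ml, 93 (84.5%) were raised by both forms at 10 ng/ml and 1 was lowered by both. Of the 67 lower genes, 56 (83.6%) were lowered by both and 0 were raised. The called genes were also at higher levels, with a median of the mean CPM of 71.9 (higher) and 103.7 (lower), against 16.3 over all genes tested. Higher counts make a call easier in any comparison, and genes of like level were not compared. The 93 are 7.66% of the 1214 raised genes and the 56 are 6.59% of the 850 lowered ones. Kitl rose by 1.64 with FSH21 and 1.53 with FSH24 at 10 ng/ml, and Itga6 by 1.36 and 1.32. Myo7a rose by 2.48 and 2.10. The ribosomal protein list had medians of -0.54 and -0.59, and 67 of its 77 genes were lowered by both forms. Cd34, at 0.055 and 0.011, and Myo10, at -0.033 and 0.038, passed with neither form at 10 ng/ml.

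**Figure D4:**
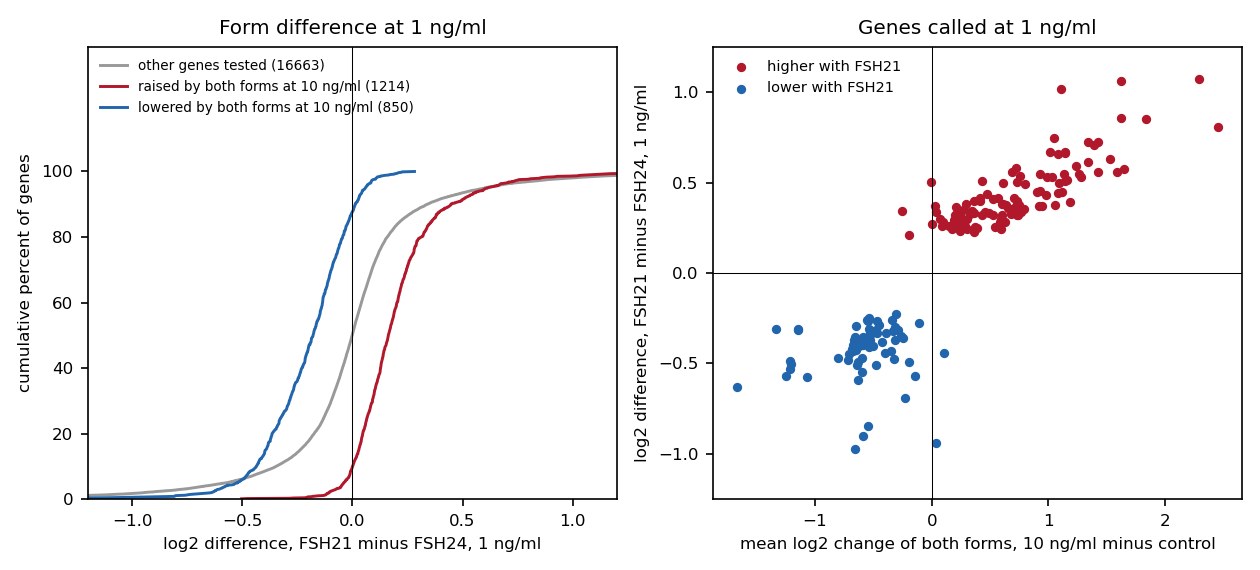
Left, cumulative percent of genes by their log2 difference between FSH21 and FSH24 at 1 ng/ml, for the 1214 genes raised and the 850 lowered by both forms at 10 ng/ml and for the other 16663 genes tested. Right, that difference for the called genes against the mean log2 change of both forms at 10 ng/ml, with 2 of the 177 beyond the vertical axis; most red points lie right of 0 and most blue points left of it.

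None of the libraries that chose these sets enters the low-dose difference, though 1 fit shared its estimate of spread over all 18. The 1214 raised genes had a median difference of 0.16 between FSH21 and FSH24 at 1 ng/ml. Of these, 1095 (90.2%) were on the higher side, against 50.7% of all genes tested, and 709 (58.4%) were higher in all 3 pairs, against 17.9%. The 850 lowered genes had a median of -0.18. In this set 12.4% were on the higher side and 481 (56.6%) were lower in all 3 pairs, against 15.6% of all genes tested. The mean log2 CPM of the raised genes was higher with FSH21 by 0.26, 0.19 and 0.16 in numbers 1, 5 and 6, and by 0.031, 0.062 and 0.048 in numbers 2, 3 and 4 at 10 ng/ml. The lowered genes were at -0.19, -0.30 and -0.12 at 1 ng/ml and at -0.038, -0.072 and -0.031 at 10 ng/ml. Each number thus showed the same direction. The values at 10 ng/ml come from the libraries that chose the sets, where both forms had to pass. That choice can itself make the form difference there small, so the sizes at the low and high dose cannot be set against each other.

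Against the control of its own number, the mean of the raised genes stood at 0.33, 0.21 and 0.24 with FSH21 and at 0.079, 0.021 and 0.078 with FSH24 at 1 ng/ml. At 10 ng/ml it stood at 0.62, 0.63 and 0.66 with FSH21 and 0.59, 0.57 and 0.61 with FSH24. The lowered genes stood at -0.25, -0.22 and -0.18 with FSH21 and at -0.061, 0.083 and -0.062 with FSH24 at the low dose. In both sets the FSH21 libraries at 1 ng/ml lay between the FSH24 libraries at 1 ng/ml and all libraries at 10 ng/ml. The genes were chosen for being moved in the libraries at 10 ng/ml, so the outer place of those libraries follows from the choice. Only the order of the forms at 1 ng/ml is free of it. With a stricter set of genes moved at least 2-fold by both forms at 10 ng/ml, the median form difference at 1 ng/ml was 0.50 over 161 raised genes and -0.46 over 80 lowered genes.

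**Figure D5:**
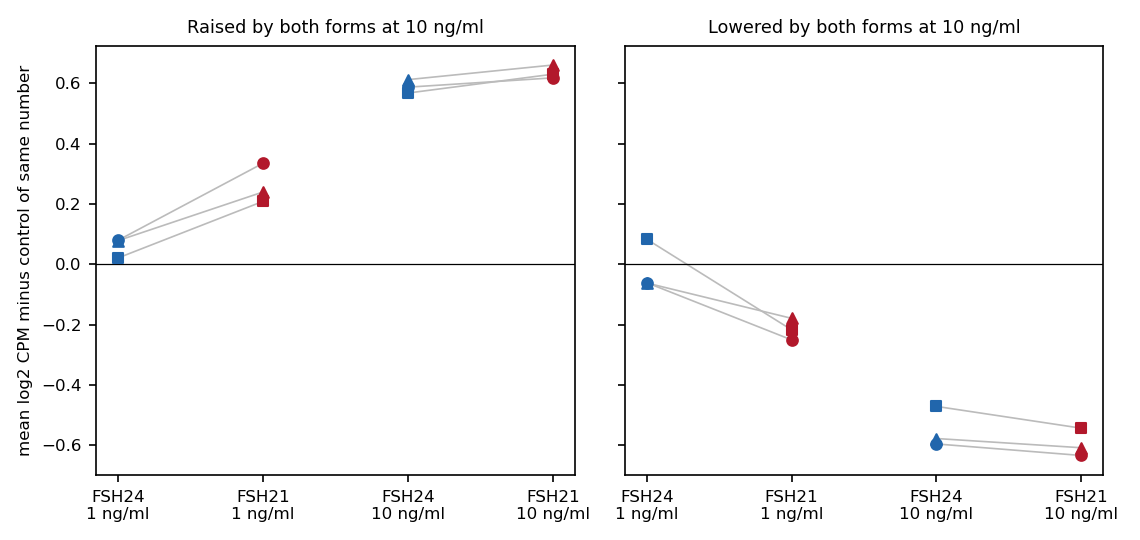
Mean log2 CPM of the 1214 raised and 850 lowered genes in each treated library minus the control of the same number. The genes were chosen in the libraries at 10 ng/ml, so the distance of those libraries from 0 follows from the choice. Symbols mark numbers 1, 5 and 6 (or 2, 3 and 4 at 10 ng/ml) as circle, square and triangle, blue is FSH24, red is FSH21, and grey lines join libraries of the same number; at 1 ng/ml the red points lie farther from 0 than the blue ones in every number.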

How the data were processed

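RNA of 18 libraries from mouse early secondary follicles was sequenced on 4 lanes each. The authors deposited RSEM estimated counts for each gene and library, per the file headers, and 33.9% of non-zero values were not whole. Per the submitters' processing notes the tools included STAR 2.7, bcl2fastq and FastQC, with build mm10. The RSEM version, annotation and strand setting are not given in the sources used here, so overlapping antisense genes cannot be told apart. Values were rounded and tested with edgeR 4.0.16 in R 4.3.3 (quasi-likelihood, robust, TMM, filterByExpr by group, minimum count 10) over all 18 libraries, with library number as a block plus treatment. This tested 18727 of 56691 genes. P-values were adjusted by Benjamini-Hochberg over all genes tested and called under 0.05. Positions come from GENCODE M21, which held 52073 of the identifiers, and 2639 had no symbol. Motifs and pyrimidine runs were searched in RefSeq windows.

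The named genes were the 12 called genes with the largest difference in each direction (mean of at least 1 CPM, same sign in 3 pairs), called list members, and 25 fixed genes. The comparison, its 34 lists and this rule were chosen with earlier results of these data known. Of the list members, 23 were not tested and 1 was not among the symbols; no red cell gene was tested. Alternatives were no block, only 6 or 9 libraries, RLE scaling, other filters, no robust step, DESeq2 1.42.0 and leaving out libraries. Tests were run first on simulated data. Some called genes are not reported here. Figures used matplotlib 3.10.9 under Python 3.11.15.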

Additional observations from a re-analysis of the deposited data

Results flagged for a closer look

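Among the 79 named genes, 4 differed between the forms in opposite directions at the 2 doses in every pair of libraries. Some of the 79 were chosen for the same sign in all 3 pairs at 1 ng/ml, and the share over all genes tested is not given here. The count is therefore not read as a result about the named genes. Myo10 was higher with FSH21 in all 3 pairs at 1 ng/ml (0.27) and lower in all 3 at 10 ng/ml (-0.071), and the test of the change with dose gave an adjusted p of 0.189. Rps27a was at -0.48 and 0.15 (adjusted p = 0.127), and Rplp2 at -0.35 and 0.031 (adjusted p = 0.236). Pde4b was at -0.21 and 0.83 (adjusted p = 0.343), and measured 1.86, 1.59 and 1.23 CPM with FSH21 and 2.28, 1.72 and 1.42 CPM with FSH24 at 1 ng/ml. None of these interaction tests passed.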

How the results depend on the processing

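The 177 genes called between the forms depended on the pairing. Without the replicate block 2 were called, and the comparison of FSH21 with its controls went from 226 to 24. Deviations from the group mean correlated within numbers 1, 5 and 6 at r = 0.21, 0.17 and 0.083 across genes, above the correlations with other numbers (at most -0.0175), but number 6 lay under 0.1. Each group was centred on its own mean, which pushes the correlations with other numbers below 0 when the same-number one is above it. The gap between them is thus partly built in. So the pairing rests on the titles and only weakly on this check. With only the 6 libraries of the comparison 19 were called, without a filter on low counts 990, with a mean CPM of at least 1 280, without the robust step 107 and with DESeq2 508 (289 higher, 219 lower). With the 9 libraries of the same numbers 157 were called, split 76 higher and 81 lower. Leaving out all 3 libraries numbered 6, an alternative chosen after seeing the data, left 103. Leaving out the 18S row, also chosen after seeing the data, gave 83 higher and 72 lower. Leaving out 1 library gave 10 (FSH21 number 1) to 149, with 28 without FSH24 number 5 and 35 without FSH21 number 5. For FSH21 against controls, 6 libraries gave 487, no filter 807, and leaving out 1 library 42 to 151. For FSH24 against controls, 6 libraries gave 7, 9 libraries 1, no filter 413, and leaving out 1 library 0 to 2. Between forms at 10 ng/ml, 6 libraries gave 1, no filter 253, DESeq2 20, and leaving out 1 library 0 to 1. For the change of the form difference with dose, no filter gave 611, DESeq2 161, and leaving out 1 library 0 to 11. The set medians stayed on their side of 0 under all alternatives run, and moved to 0.50 and -0.46 with genes moved at least 2-fold. No named gene was scored as reversed under these settings, but a change of sign was scored only where the main fit or the alternative made a call. Some uncalled genes did change sign. With 1 library left out Cdh1 ran from -0.13 to 0.062 and Inha from -0.10 to 0.16. Of 79, 56 lost their call without the block and only Kitl kept it, while the rest had not been called in the main fit. With no filter 4 gained a call, with DESeq2 1 and without FSH24 number 6 1. The cause of these shifts was not tested.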

Other observations

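Beyond the lists above, 3 groups of genes were assembled after the called genes had been seen, and are given as description only. Their counts follow largely from that choice and lend no support to a shared function. Over all genes tested 0.587% were called higher and 0.358% lower, and 50.7% were on the higher side. The cell cycle list above showed no such lean, with 2 of 23 genes called, 12 on the higher side and a median of 0.0065. Of 25 mitosis genes 11 were called higher with FSH21 at 1 ng/ml, 24 were on the higher side, and the median was 0.25. Cenpf, a kinetochore protein, measured 314, 278 and 274 CPM with FSH21 and 231, 186 and 242 CPM with FSH24, with no overlap. Cdc20, an activator of the anaphase-promoting complex, was at 0.32 and Ube2c, its ubiquitin-conjugating enzyme, at 0.32. At 10 ng/ml the forms differed in Cdc20 by -0.068, while both raised it (0.70 and 0.77).

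Of 12 fatty acid synthesis genes 3 were called higher and 11 were on the higher side. Fasn, fatty acid synthase, measured 427, 389 and 383 CPM with FSH21 and 329, 288 and 306 CPM with FSH24 (0.38 on the log2 scale, adjusted p = 0.00605 by edgeR). Elovl6, a fatty acid elongase, was at 0.39, and Acaca, acetyl-CoA carboxylase, at 0.23. Of 22 genes for translation factors, ribosome-associated proteins and small nucleolar RNA hosts, 4 were called lower and all 22 were on the lower side, with a median of -0.25. These were Rpsa (-0.41), Zfas1 (-0.40), Rack1 (-0.33) and Eif3i (-0.32).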
